A study of Mus musculus with 21 samples.

Results

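Expression of 10 genes of the brain endothelium and the blood-brain barrier was followed through all 7 groups of mice: the junction and adhesion genes Cldn5, Pecam1 and Cdh5, the transporter genes Slco1a4, Abcb1a and Mfsd2a, the receptor genes Flt1 and Tek, the intermediate filament gene Nes and the endothelial gene Apold1. They were found by gene symbol in both deposited tables, which hold 33829 genes (mice given irisin before MPTP, with their controls) and 55385 genes (mice given irisin after it), and all 10 had enough counts to be tested in both. Apold1 and Nes were selected on their measured fold change, lower in mice given irisin before MPTP than in mice given MPTP, and the others by name, so this contrast is described without a test for all 10 genes, and every pre-treatment contrast is described without a test for Apold1 and Nes. RNA-seq was performed on midbrain (labels; the methods describe nigral tissue dissected by hand after perfusion) of 21 male C57BL/6 mice aged 6 weeks, with 3 mice in each group and no genetic change. MPTP, a toxin that damages dopaminergic neurons, was injected intraperitoneally at 30 mg/kg per day for 5 days, and irisin, a secreted fragment of the muscle membrane protein FNDC5, at 200 μg/kg per day for 5 days. In the pre-treatment experiment, control mice received water (ddH2O) for 10 days, MPTP mice received water for 5 days and then MPTP, and irisin-MPTP mice received irisin and then MPTP. In the delayed experiment, control mice received water for 10 days, irisin mice received water for 5 days and then irisin, MPTP mice received MPTP and then 5 days of water, and MPTP-irisin mice received MPTP and then irisin. MPTP was therefore the later course of injections in the pre-treatment experiment and the earlier course in the delayed experiment.

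Brain endothelial cells are sealed to each other by tight junctions, carry few transport vesicles and move nutrients and drugs with dedicated carriers and pumps, and together these features form the blood-brain barrier. VEGF and angiopoietin receptors on the same cells control vessel growth and stability. MPTP is given to mice as a model of Parkinson's disease, and the comparisons asked how irisin given before or after it changed the transcripts of the tissue.

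Apold1 differed most between groups, while the fitted differences of the 8 genes other than Apold1 and Nes lay between -0.44 and 0.99 on the log2 scale in every contrast. Apold1, which encodes a membrane protein of endothelial cells and was first described as an early response gene, was 9.65-fold lower in irisin-MPTP mice than in MPTP mice of the pre-treatment experiment, the contrast for which it was chosen. In the delayed experiment, with mice that played no part in that choice, Apold1 was 5.89-fold lower in MPTP mice than in control mice (log2 fold change -2.56 ± 0.38 SE, adjusted p = 0.0308, Benjamini-Hochberg adjustment of edgeR's quasi-likelihood test, n = 3 per group). It was the only 1 of the 10 genes past the threshold of 0.05 in a tested comparison, where 0.132% of all genes were. The call was lost without any 1 of the 3 MPTP mice (adjusted p = 0.130 to 0.156), with the replicate number as a block (0.0680), with only the 2 compared groups in the fit (0.177) and with limma on log2(FPKM + 1) (0.127). It was kept with median ratio scaling (0.0318), all genes of any count (0.0247), limma on log2(FPKM + 0.1) (0.0456) and DESeq2 (1.27e-10). In bulk tissue, fewer cells of a type and less RNA per cell cannot be told apart. The summed level of 28 other endothelial genes was 641 to 681 CPM (counts per M counts of the library) in the control mice and 623 to 684 CPM in the MPTP mice of that comparison, and the 8 genes other than Apold1 and Nes had a median log2 fold change of 0.05 there.

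Promoter sequence is shown for the gene with the largest differences, Apold1, for Nes, which was chosen with it, and for a receptor gene (Flt1) and a junction gene (Cldn5) with smaller differences. Promoters of 8 of the 10 genes were matched in RefSeq (GRCm38.p6). Each line gives the 30 bases from 52 to 23 bases before the RefSeq start, 5′ to 3′ on the strand of the gene, with capitals marking TATAAA, CGTCATTGG or CCGCCC.
Apold1, plus strand, chr6:134981949-134981978: CGTCATTGGctcctgggagcTATAAAgtat
Flt1, minus strand, chr5:147726034-147726063: ggaagtgggctggggaaaggtTATAAAtcg
Nes, plus strand, chr3:87971041-87971070: ggcgggagtatgaataccctcgcttcagct
Cldn5, plus strand, chr16:18776795-18776824: gcagagtCCGCCCccgagacttcaaatagg
The TATA box letters TATAAA began 32 bases before the RefSeq start in Apold1 and 31 bases before it in Flt1, and in no other of the 8 promoters. Letters were sought on both strands over a stretch longer than the 30 bases shown, with matches from -188 to -19 in these genes. Over all 32851 promoters, 13.6% held TATAAA anywhere in that stretch. This share does not refer to the positions of TATAAA in Apold1 and Flt1. The short cyclic AMP response letters TGACG, read on the other strand as CGTCA, were found in Apold1 at position -52 and in Flt1, and in 20.8% of all promoters, while the full letters TGACGTCA were found in Flt1 at position -81 and in 1.79% of all promoters. In Apold1 the letters CGTCA share bases with ATTGG, which is the CCAAT box on the other strand. CCAAT was held by Cldn5, Slco1a4, Mfsd2a and Apold1 and by 37.4% of all promoters, and the GC box letters GGGCGG by Cldn5, Flt1 and Nes and by 35.7% of all promoters. The AP-1 letters TGANTCA (7.81% of all promoters) and the CArG letters of serum response elements (1.63%) were in 0 of the 8 promoters. These are matches of letters and not measured binding sites. For Apold1 the gene model of the files begins upstream of the RefSeq start, so the 30 bases shown lie inside the annotated gene.

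The gene models of the files have GRCm38 coordinates. All 10 genes are protein coding and lie on 7 chromosomes: Cldn5 at chr16:18776847-18778262, Pecam1 at chr11:106654217-106750628, Cdh5 at chr8:104101625-104144511, Slco1a4 at chr6:141805440-141856171, Abcb1a at chr5:8660077-8748575, Mfsd2a at chr4:122946850-122961188, Flt1 at chr5:147561604-147726011, Tek at chr4:94739289-94874976, Nes at chr3:87971078-87980451 and Apold1 at chr6:134981718-134986836. Cldn5 and Apold1 have a single annotated transcript (GENCODE M21) and the others have 2 to 8. Abcb1a has a close paralogue, Abcb1b, whose mean level was 0.319 to 0.685 FPKM in the 7 groups, against 5.97 and 7.05 FPKM for Abcb1a in the control groups. Because the use of strand in counting was not given, an antisense gene inside Abcb1a (Gm42686, 203 counts summed over the 12 delayed mice) cannot be fully separated from it.

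Total counts were 66.7 to 75.6 M per mouse in the pre-treatment experiment and 48.8 to 77.2 M (mega) in the delayed experiment, with 10.6 to 12.9% and 7.65 to 9.50% of counts on mitochondrial genes. The delayed MPTP mice had the lowest mitochondrial shares of their experiment, at 7.69, 7.65 and 7.80% against 7.87 to 9.50% in the other 9 mice. Markers of dopaminergic neurons were present in every mouse of both experiments, with Th at 21.3 to 55.1 and 31.0 to 63.3 CPM and Slc6a3 at 25.7 to 106 and 15.3 to 67.4 CPM. Slc18a2 was at 66.8 to 169.7 and 40.5 to 86.6 CPM, and Ddc at 48.6 to 143 and 39.1 to 94.5 CPM. Choroid plexus genes (Ttr, Folr1, Kl and 5 others) varied most between mice. Their summed level was 1662 CPM in MPTP mouse 2 of the pre-treatment experiment against 21.5 to 47.3 CPM in the other 8 mice, and it ranged from 46.5 to 1681 CPM among the 12 delayed mice. Hemoglobin genes and Alas2 summed to 231 to 455 CPM in irisin-MPTP mice, 549 to 810.4 CPM in MPTP mice and 530 to 826 CPM in control mice of the pre-treatment experiment, and to 309 to 869.6 CPM in the delayed experiment. No gene of either list was at 0 in any group. The part of these cells and of blood in the values below was not tested beyond leaving out each mouse in turn.

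The 28 marker genes of endothelial cells beyond the 10 genes (Kdr, Erg, Emcn, Vwf and others) were all detected in every group, and their summed level was 515 to 608 CPM in the 9 mice of the pre-treatment experiment and 623 to 694 CPM in the 12 mice of the delayed experiment. In irisin-MPTP mice the sum was 515 to 549 CPM, against 546 to 592 CPM in MPTP mice and 550.4 to 608 CPM in control mice. None of the 28 passed the threshold in any of the 6 tested comparisons with edgeR.

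Levels were compared between genes as FPKM, which is per gene length, within each control group. In the pre-treatment experiment the organic anion transporter gene Slco1a4 was highest (12.2 ± 2.001 FPKM, SD, n = 3), followed by Cldn5 (10.5 ± 1.01), Mfsd2a (7.88 ± 1.62), Abcb1a (5.97 ± 1.21), Flt1 (4.67), Tek (3.92), Pecam1 (3.77), Cdh5 (2.84), Apold1 (2.79) and Nes (1.83). Only 3 neighbouring pairs in this order did not overlap between mice, namely Cldn5 above Mfsd2a, Pecam1 above Cdh5 and Apold1 above Nes. In the delayed control mice the order began with Mfsd2a (24.9 FPKM) and Cldn5 (21.2), followed by Slco1a4 (8.03), Abcb1a (7.05), Flt1 (5.90), Apold1 (5.58), Cdh5 (4.46), Pecam1 (4.29), Tek (3.81) and Nes (1.83). Cldn5 above Slco1a4, Abcb1a above Flt1 and Tek above Nes were the pairs without overlap there. The control levels of the 2 experiments stood apart most for Mfsd2a, whose mean FPKM in the delayed control mice was 3.17 times that in the pre-treatment control mice, and for Cldn5 (2.02 times), while that of Slco1a4 was 0.657 times as high and that of Nes 1.001 times. The 2 tables were made separately, so these ratios join the experiment and the table and were not tested.

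Within an experiment, levels of a gene were compared as CPM scaled by TMM factors. Apold1 had the widest range, with the highest mouse 13.8 times the lowest in the pre-treatment experiment and 17.1 times in the delayed experiment. Nes followed in the pre-treatment experiment (3.49 times) and then Mfsd2a (2.84 times). The other 7 genes stayed within 1.23 to 1.74 times in both experiments.

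**Figure D1:**
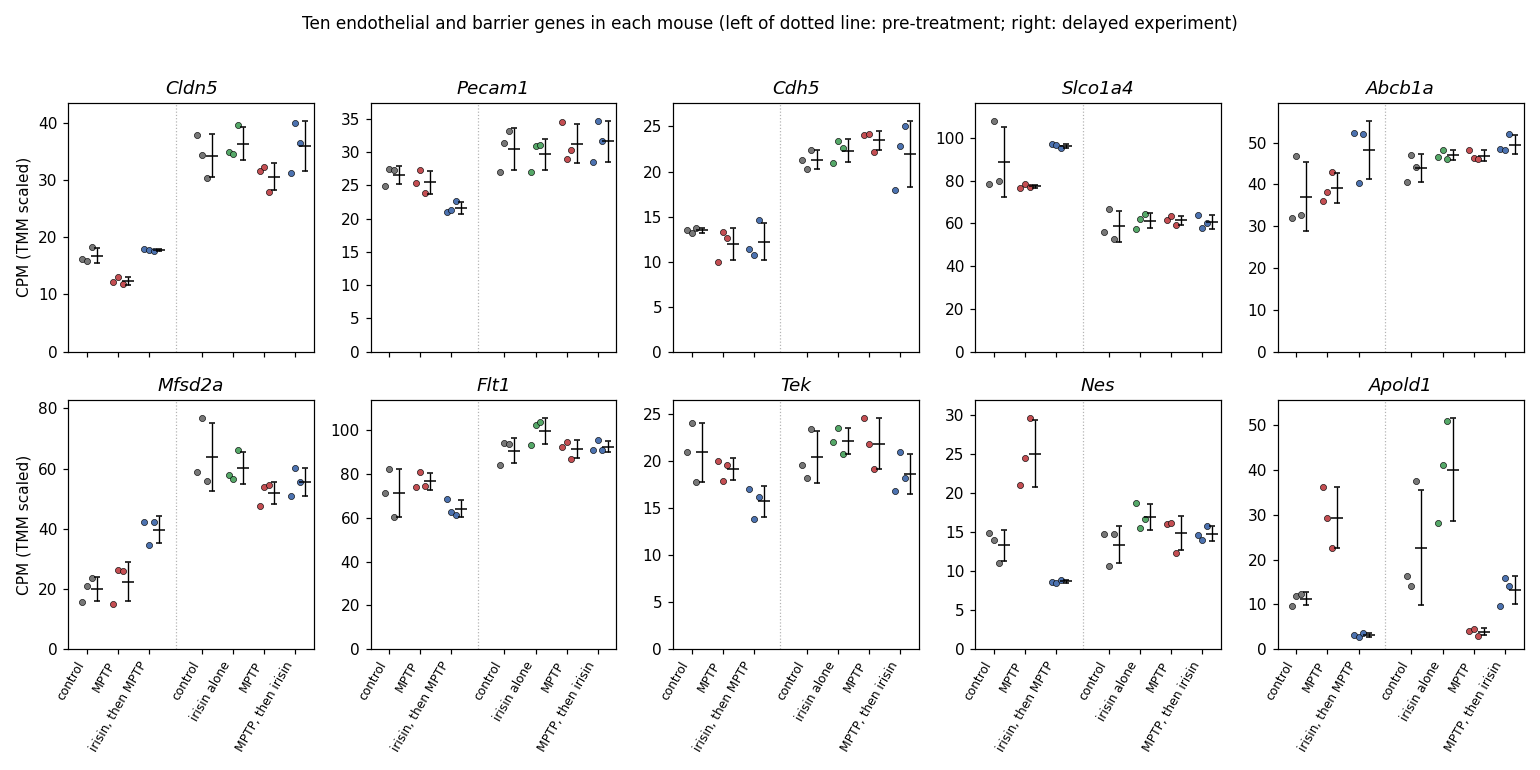
Level of each of the 10 genes in each mouse, as TMM-scaled CPM on linear axes that start at 0, with the pre-treatment groups left of the dotted line and the delayed groups right of it. Points are mice and black bars the mean with SD (n = 3). Apold1 sits at 2.62 to 3.46 CPM in irisin-MPTP mice and at 2.98 to 4.43 CPM in delayed MPTP mice, below every other mouse of its experiment.

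Counts of genes past the threshold were small in every comparison, for the 10 genes as for all genes. Comparing MPTP with control mice in the pre-treatment experiment, 0 of the 8 tested genes passed and 0.0221% of all 22641 tested genes did. With irisin-MPTP against control mice, 0 of 8 passed, against 0.0707% of all genes. At an unadjusted p under 0.05, these comparisons held 1 and 3 of the 8 genes (background 6.03% and 7.12% of all genes). In the delayed experiment, MPTP against control gave 1 of 10 genes (Apold1), against 0.132% of 21922 genes in either direction and 0.0411% among lower genes. Irisin alone against control gave 0 of 10 (0.109% of all genes), MPTP-irisin against MPTP 0 of 10 (0.00456%), and the interaction of irisin and MPTP, which tests whether the irisin difference itself differed with MPTP, 0 of 10 (0.0411%). At an unadjusted p under 0.05, the 4 delayed comparisons held 2, 2, 1 and 0 of the 10 genes (background 8.33%, 8.97%, 3.90% and 5.57% of all genes). DESeq2, run as an alternative, called 1 of the 10 genes in 3 comparisons where edgeR called 0: Cldn5 with MPTP in the pre-treatment experiment (0.270% of all genes called), Mfsd2a in irisin-MPTP against control mice (0.566%) and Apold1 in MPTP-irisin against MPTP mice (0.102%). Irisin-MPTP against MPTP mice is the contrast that chose Apold1 and Nes, so none of the 10 genes was counted in it, and 0.0707% of all genes passed.

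The genes did not move as a block. For irisin-MPTP against MPTP mice, described without a test, the 8 genes other than Apold1 and Nes held 3 that were higher without overlap between the groups (Cldn5, Slco1a4 and Mfsd2a), 3 that were lower without overlap (Pecam1, Flt1 and Tek) and 2 that overlapped, where 7.14% of all genes were higher and 7.08% lower without overlap. Their median log2 fold change was 0.17, and that of all genes tested was 0.00. For MPTP against control mice in the pre-treatment experiment, 2 of these 8 genes were lower without overlap (Cldn5 and Slco1a4) and none was higher (11.6% of all genes in either direction), and for irisin-MPTP against control mice 1 was higher (Mfsd2a) and 2 lower (Pecam1 and Tek, with 13.6% of all genes in either direction). In the delayed experiment, groups did not overlap for 2 of 10 genes with MPTP (16.2% of all genes), 1 with irisin alone (15.1%) and 1 with MPTP-irisin against MPTP (10.7%). The median of all 10 genes was 0.05, 0.09 and 0.02 on the log2 scale in these 3 comparisons. All 3 pre-treatment contrasts share groups of mice pairwise, as do the delayed contrasts.

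**Figure D2:**
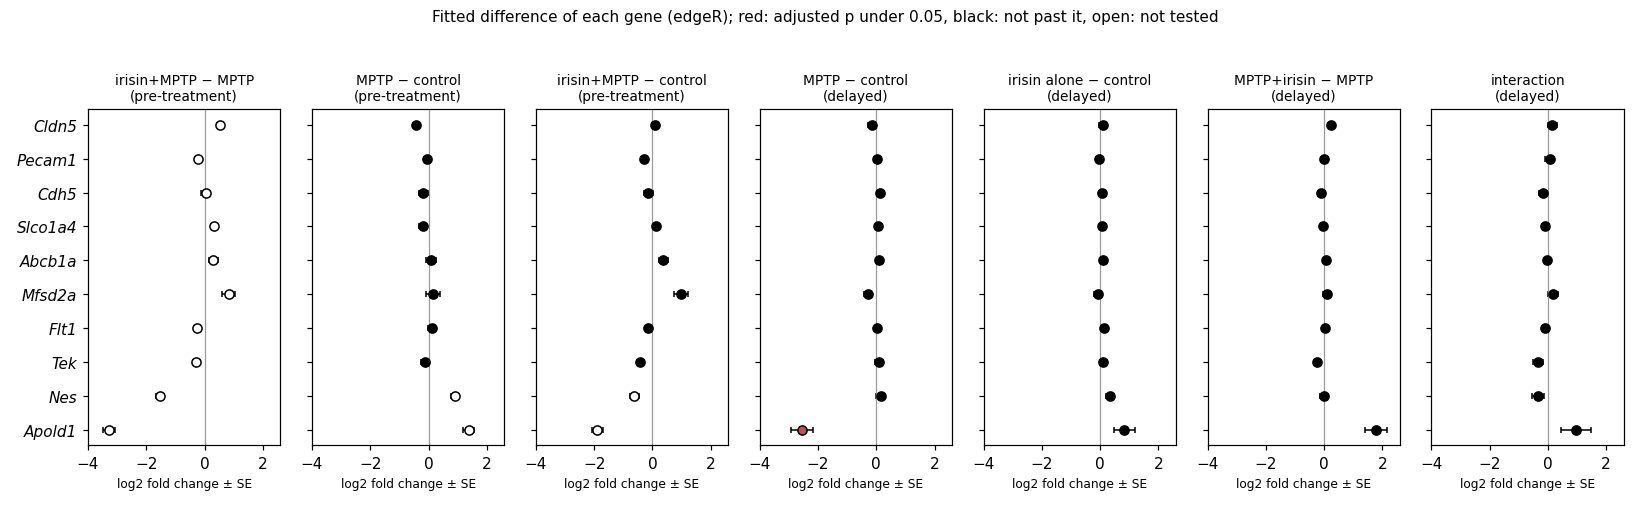
Fitted log2 fold change with its standard error (edgeR) of the 10 genes in each comparison, on a linear log2 axis with 0 for no difference. Apold1 lies at -3.27 and -2.56 in the contrasts where it was lowest, and the 8 genes other than Apold1 and Nes lie between -0.44 and 0.99 in the pre-treatment experiment and between -0.34 and 0.23 in the delayed experiment.

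Cldn5 encodes claudin-5, the main claudin of the tight junctions of brain endothelium. It was at 16.2, 15.8 and 18.3 CPM in the control mice of the pre-treatment experiment, at 12.2, 13.0 and 11.8 CPM in MPTP mice and at 18.0, 17.8 and 17.6 CPM in irisin-MPTP mice. All 3 MPTP mice were below all 6 others. The log2 fold change of MPTP against control mice was -0.44 ± 0.09 SE, with an adjusted p of 0.485 (Benjamini-Hochberg adjustment of edgeR's quasi-likelihood test), and DESeq2 gave 0.0114. Over all alternatives the adjusted p of this difference ran from 0.0114 to 0.973. Irisin-MPTP mice were 0.53 ± 0.09 above MPTP mice on the log2 scale (the contrast without a test) and 0.08 ± 0.09 above control mice. Cldn5 in the delayed experiment was at 37.9, 34.3 and 30.4 CPM in control mice, 34.8, 34.5 and 39.6 CPM in irisin mice, 31.5, 32.3 and 27.9 CPM in MPTP mice and 31.3, 39.9 and 36.5 CPM in MPTP-irisin mice. These groups overlapped, with log2 fold changes of -0.16 ± 0.11 SE for MPTP against control and 0.23 ± 0.11 SE for MPTP-irisin against MPTP.

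Pecam1 (CD31) and Cdh5 (VE-cadherin) encode adhesion proteins at the contacts between endothelial cells. Pecam1 was at 24.9, 27.4 and 27.3 CPM in control mice, 25.3, 27.3 and 23.9 CPM in MPTP mice and 20.97, 21.2 and 22.7 CPM in irisin-MPTP mice of the pre-treatment experiment. The irisin-MPTP mice were below all 6 others. Against control mice the log2 fold change was -0.30 ± 0.08 SE with an unadjusted p of 0.00664 and an adjusted p of 0.478 in edgeR's model. The 12 delayed mice had Pecam1 between 26.9 and 34.6 CPM, every group overlapped, and the differences were -0.04 to 0.05 on the log2 scale. Cdh5 was at 13.5, 13.2 and 13.7 CPM in control mice, 9.99, 13.3 and 12.6 CPM in MPTP mice and 11.4, 10.7 and 14.6 CPM in irisin-MPTP mice, and between 17.9 and 25.0 CPM in the delayed mice. Its groups overlapped in all 6 comparisons of 2 groups, and its log2 fold changes ran from -0.17 to 0.14.

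Slco1a4 and Abcb1a encode transporters at the capillary wall, the former a carrier of organic anions and the latter the drug efflux pump P-glycoprotein. Slco1a4 was at 78.6, 108 and 80.05 CPM in control mice, 76.7, 78.3 and 76.9 CPM in MPTP mice and 97.2, 96.5 and 95.3 CPM in irisin-MPTP mice. The irisin-MPTP mice lay above the MPTP mice and within the range of the control mice, of which mouse 2 was the highest of all 9. The difference of MPTP from control was -0.20 ± 0.11 SE on the log2 scale (adjusted p = 0.853, edgeR), and that of irisin-MPTP from MPTP was 0.32 ± 0.11 SE, without a test. Abcb1a was at 31.9, 46.7 and 32.6 CPM in control mice, 36.1, 38.3 and 43.0 CPM in MPTP mice and 52.4, 40.3 and 52.1 CPM in irisin-MPTP mice, with overlap between all groups. Its log2 fold change for irisin-MPTP against control was 0.38 ± 0.17 SE (unadjusted p = 0.0502, adjusted p = 0.701, edgeR). Both genes kept to narrow ranges in the delayed experiment, with Slco1a4 at 52.7 to 66.9 CPM and Abcb1a at 40.6 to 52.1 CPM, overlap in every comparison and log2 fold changes of 0.10 or less in size.

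Mfsd2a encodes the carrier that brings lysophosphatidylcholine with docosahexaenoic acid into the brain and keeps vesicle transport across the endothelium low. It was at 15.7, 20.8 and 23.7 CPM in control mice, 14.9, 26.2 and 26.0 CPM in MPTP mice and 42.3, 34.5 and 42.4 CPM in irisin-MPTP mice. All 3 irisin-MPTP mice were above the 6 other mice of the pre-treatment experiment. Against control mice Mfsd2a was 1.98-fold higher (log2 fold change 0.99 ± 0.23 SE, unadjusted p = 0.00222, adjusted p = 0.334, Benjamini-Hochberg adjustment of edgeR's quasi-likelihood test), and DESeq2 gave an adjusted p of 0.00771. The adjusted p ran from 0.00771 to 0.744 over all alternatives, and only DESeq2 put it under the threshold. Against MPTP mice the log2 fold change was 0.83 ± 0.23 SE, without a test, and 0.95 without MPTP mouse 2, the mouse with the high choroid plexus level. Delayed mice had Mfsd2a at 59.0, 76.7 and 55.8 CPM in control mice, 57.8, 56.4 and 66.1 CPM in irisin mice, 47.5, 53.7 and 54.4 CPM in MPTP mice and 50.9, 60.1 and 55.7 CPM in MPTP-irisin mice. The MPTP mice were all below the control mice there, with a log2 fold change of -0.30 ± 0.12 SE (unadjusted p = 0.0316, adjusted p = 0.541, edgeR), and MPTP-irisin mice overlapped MPTP mice (0.10 ± 0.12 SE, adjusted p = 0.9995).

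Flt1 and Tek encode receptors, Flt1 (VEGFR1) for VEGF and placental growth factor and Tek (TIE2) for angiopoietins. Flt1 was at 71.2, 82.5 and 60.5 CPM in control mice, 74.1, 81.1 and 74.8 CPM in MPTP mice and 68.4, 62.5 and 61.2 CPM in irisin-MPTP mice. Irisin-MPTP mice were below MPTP mice without overlap (-0.26 ± 0.11 SE on the log2 scale, without a test) and overlapped control mice. Tek was at 20.99, 24.05 and 17.8 CPM in control mice, 20.05, 17.8 and 19.5 CPM in MPTP mice and 17.1, 13.8 and 16.2 CPM in irisin-MPTP mice. All 3 irisin-MPTP mice were below the other 6, and the log2 fold change against control was -0.41 ± 0.13 SE (unadjusted p = 0.0114, adjusted p = 0.537, edgeR). Among delayed mice Flt1 lay at 84.0 to 104 CPM and Tek at 16.8 to 24.5 CPM, with overlap in every comparison. Flt1 with irisin alone was 0.14 ± 0.07 SE above control on the log2 scale (unadjusted p = 0.0614, adjusted p = 0.565, edgeR), and the interaction for Tek was -0.34 ± 0.18 SE (adjusted p = 0.908, edgeR).

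Nes encodes nestin, an intermediate filament protein of neural progenitors that is also made by endothelial cells of growing vessels and by reactive astrocytes. It was at 14.8, 13.98 and 11.03 CPM in control mice, 21.03, 24.5 and 29.5 CPM in MPTP mice and 8.62, 8.47 and 8.89 CPM in irisin-MPTP mice of the pre-treatment experiment. The 3 groups were apart from each other, with MPTP mice highest and irisin-MPTP mice lowest. As a description, without a test, Nes was 0.91 ± 0.15 SE higher in MPTP than in control mice on the log2 scale, -1.53 ± 0.15 SE with irisin-MPTP against MPTP and -0.62 ± 0.15 SE with irisin-MPTP against control. Delayed mice had Nes at 14.7, 10.6 and 14.8 CPM in control mice, 18.7, 15.5 and 16.6 CPM in irisin mice, 16.0, 16.2 and 12.3 CPM in MPTP mice and 14.6, 13.9 and 15.8 CPM in MPTP-irisin mice. The irisin mice were above the control mice, with a log2 fold change of 0.34 ± 0.15 SE (unadjusted p = 0.0448, adjusted p = 0.546, edgeR). MPTP against control (0.15 ± 0.15 SE) and MPTP-irisin against MPTP (-0.01 ± 0.15 SE) overlapped between groups. Among 8 other genes of neural progenitors and reactive astrocytes (Gfap, Vim, Sox2 and others), Fabp7, a fatty acid binding protein of radial glia, fell in irisin-MPTP against control mice (log2 fold change -1.20 ± 0.15 SE, adjusted p = 0.0387, edgeR), and no other gene of that list passed the threshold in any tested comparison. This list was chosen with earlier results of these data known, so the p-value of Fabp7 is not an independent test. The summed level of the list overlapped between the 3 pre-treatment groups. It was 347 to 518 CPM in control, 377 to 472 CPM in MPTP and 386 to 448 CPM in irisin-MPTP mice.

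Apold1 was at 9.55, 11.9 and 12.3 CPM in control mice, 36.3, 29.3 and 22.6 CPM in MPTP mice and 3.04, 2.62 and 3.46 CPM in irisin-MPTP mice of the pre-treatment experiment. The groups were apart, in the same order as for Nes. As a description, without a test, the log2 fold changes were 1.39 ± 0.19 SE for MPTP against control, -3.27 ± 0.20 SE for irisin-MPTP against MPTP and -1.89 ± 0.20 SE for irisin-MPTP against control. Without MPTP mouse 2, the first of these was 1.39 and the second -3.28. Delayed mice had Apold1 at 16.3, 14.2 and 37.5 CPM in control mice, 28.1, 41.1 and 51.0 CPM in irisin mice, 4.11, 4.43 and 2.98 CPM in MPTP mice and 9.68, 15.9 and 14.04 CPM in MPTP-irisin mice. The 3 MPTP mice were below all 9 others, control mouse 3 lay within the irisin group, and the MPTP-irisin mice lay above the MPTP mice and partly within the range of the control mice. The difference of MPTP from control (-2.56 ± 0.38 SE) was called with edgeR at an adjusted p of 0.0308. It was called without each of the control mice too (adjusted p = 0.0177 to 0.0457), at -1.99 without control mouse 3. Without MPTP mouse 1, 2 or 3 the log2 fold change was -2.61, -2.68 and -2.41, and the adjusted p was 0.130, 0.137 and 0.156. MPTP mouse 3 had the highest choroid plexus level of its group (1563 CPM against 46.5 and 99.6 CPM). The MPTP mice also had the lowest mitochondrial shares (7.65 to 7.80%), whose part in the result was not tested. MPTP-irisin mice were 3.43-fold above MPTP mice (log2 fold change 1.78 ± 0.37 SE, higher in 3 of 3 mice, unadjusted p = 0.000586, adjusted p = 0.843, edgeR), where DESeq2 gave an adjusted p of 0.000495 and the range over all alternatives was 0.000495 to 1. Irisin alone was 0.82 ± 0.36 SE above control (unadjusted p = 0.0421, adjusted p = 0.545, edgeR), and the interaction was 0.96 ± 0.51 SE (adjusted p = 0.908, edgeR). Without control mouse 3 these log2 values were 1.40 and 0.38 (adjusted p = 0.192 and 0.890, edgeR). MPTP mice were thus above control mice when MPTP was the later course and below them when it was the earlier course, and the difference between the experiments was not tested.

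Over the 21 mice, with each gene centred within its experiment, the genes with a pattern most like that of Apold1 among 15690 genes were Btg2, an antiproliferative early response gene (Pearson's r = 0.947, Spearman's rho = 0.931), and Ccn1, a secreted matrix protein (r = 0.928, rho = 0.931). Without the 2 mice in which Apold1 was farthest from its median, r was 0.934 and 0.919. These values were the highest of many and carry no test, and the mice share treatments. Btg2 was at 11.1, 11.2 and 10.4 CPM in delayed MPTP mice against 34.4, 26.5 and 60.2 CPM in control mice, and Ccn1 at 3.67, 3.99 and 3.23 CPM against 13.0, 7.49 and 34.7 CPM. Control mouse 3 was the highest of its group for Apold1, Btg2 and Ccn1 alike. For Nes the most similar genes were Pdia4 and Zbtb26 (r = 0.865 for both), for Mfsd2a Acot11 (0.903) and Smim3 (0.897), for Abcb1a Paqr8 (0.884) and Cdh19 (0.864), for Flt1 Rdx (0.864) and 9330117O12Rik (0.835), and for Slco1a4 Rlf and Mbtd1 (0.787 for both). For Cldn5 they were Gm7730 (0.760) and Apcdd1 (0.744), for Pecam1 Lmcd1 (0.743) and Sp7 (0.738), for Cdh5 Tmem254a (0.749) and Gm2451 (0.742), and for Tek Gm19026 (0.741) and Fermt2 (0.709). None of the 10 genes was among the 2 most similar genes of another. For the genes other than Apold1, r without the 2 farthest mice was 0.483 to 0.906.

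After removal of each group's mean, Pearson's r of log2 CPM between 45 pairs of them ran from -0.27 to 0.65 over the 21 mice, with a median of 0.21 and 33 pairs above 0. The highest values were those of Slco1a4 with Abcb1a (0.65), Pecam1 with Apold1 (0.64) and Slco1a4 with Flt1 (0.63). The genes of a pair come from the same library and share its depth and cell makeup, so these values are a description.

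**Figure D3:**
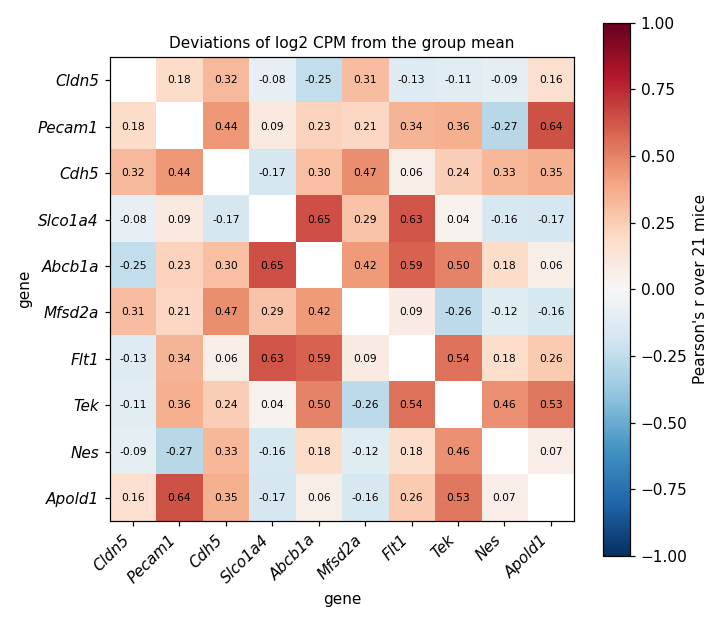
Pearson's r between each pair of the 10 genes over 21 mice, computed on log2 CPM after subtracting the mean of each group, with the colour scale running from -1 to 1. Of the 45 pairs 33 are above 0, the median is 0.21 and the highest value is 0.65, for Slco1a4 with Abcb1a.

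Other genes of the barrier and of the cells around it gave no calls. Esam, Sox17, Kdr, Tie1 and Ptprb stand both among the endothelial identity genes and in another list below. The counts of the lists are therefore not counts of separate genes. Of 18 other blood-brain barrier transporter genes (Slc2a1, Slc7a5, Abcg2 and others), 10 tight junction genes, 20 genes of the Wnt signalling that maintains the barrier, 12 VEGF and angiopoietin ligands and receptors and 14 pericyte and smooth muscle genes, 0 passed the threshold in any of the 6 tested comparisons with edgeR. At an unadjusted p under 0.05, irisin-MPTP against control held 8 of 18 transporter genes (4 higher, 4 lower), 7 of 20 Wnt genes (all lower) and 9 of 28 endothelial identity genes (2 higher, 7 lower), against 7.12% of all genes. The lists were chosen with earlier results of these data known, so these shares are not an independent test. Of the 20 Wnt genes, 17 had negative values in that comparison (median -0.20). With MPTP against control in the pre-treatment experiment, 15 had negative values (median -0.16). The Wnt feedback inhibitor gene Nkd1 had the smallest p of its list, at 22.7, 25.4 and 22.9 CPM in control and 14.4, 11.6 and 14.9 CPM in irisin-MPTP mice (log2 fold change -0.80 ± 0.11 SE, adjusted p = 0.0701, edgeR). The sphingosine-1-phosphate receptor gene S1pr1 had the smallest p among identity genes (-0.32 ± 0.07 SE, adjusted p = 0.277, edgeR), in the same comparison. In the other lists these were the iron exporter gene Slc40a1 with MPTP in the pre-treatment experiment (-0.82 ± 0.15 SE, adjusted p = 0.361, edgeR), the tight junction scaffold gene Tjp1 with MPTP in the delayed experiment (0.21 ± 0.06 SE, 0.361), the placental growth factor gene Pgf with irisin alone (-0.61 ± 0.15 SE, 0.326) and the pericyte proteoglycan gene Cspg4 in MPTP-irisin against MPTP mice (0.22 ± 0.08 SE, 0.9995).

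A mixed list held genes of endothelial activation (Icam1, Vcam1 and others) and genes tied to blood flow (Klf2, Klf4 and Nos3, the last also an identity gene). Of these, 8 of 10 had enough counts to be tested. Values of Klf2 and Klf4 are not a measure of endothelial activation. Klf4, a transcription factor induced in endothelial cells by blood flow, was at 5.62, 6.30 and 7.23 CPM in control, 16.0, 17.1 and 17.2 CPM in MPTP and 4.52, 3.52 and 4.27 CPM in irisin-MPTP mice. It rose with MPTP in the pre-treatment experiment (log2 fold change 1.39 ± 0.14 SE, adjusted p = 0.0211, edgeR), as 1 of 8 genes of the list where 0.0221% of all genes passed. Klf2, a related factor, was at 12.4, 12.04 and 13.3 CPM in control, 29.3, 27.3 and 22.7 CPM in MPTP and 6.11, 4.45 and 6.17 CPM in irisin-MPTP mice, and it fell in irisin-MPTP against control mice (-1.17, adjusted p = 0.0457, edgeR), again as 1 of 8 (0.0707% of all genes). Both genes had their groups in the same order as Apold1 and Nes in that experiment. The summed level of the list, with Klf2 and Klf4 included, had this order too. It was 83.0 to 94.5 CPM in control, 111 to 113 CPM in MPTP and 71.9 to 77.9 CPM in irisin-MPTP mice. The list was chosen with earlier results of these data known. The p-values and shares of Klf4 and Klf2 are therefore not an independent test. With MPTP against control 5 of the 8 had positive and 3 negative values (median 0.11), and with irisin-MPTP against control 2 had positive and 6 negative values (median -0.16). With delayed mice, 0 of the 8 passed the threshold, and Klf2 was at 15.2, 10.9 and 12.4 CPM in control and 9.78, 8.67 and 8.07 CPM in MPTP mice.

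Immediate early genes, which are switched on within minutes of a stimulus in many cell types, were lower in each contrast where Apold1 was lower. The list of 10 holds Btg2 and Ccn1, the genes most like Apold1 over the same mice, so this likeness was partly built in. It was also chosen with earlier results of these data known, so p-values of its genes are not an independent test. In irisin-MPTP against MPTP mice, described without a test, all 10 were lower without overlap (7.08% of all genes), with a median log2 fold change of -1.19. In irisin-MPTP against control mice all 10 were lower too (median -1.11), and Fos (-1.88 ± 0.22 SE, adjusted p = 0.0349, edgeR) and Btg2 (-1.12, adjusted p = 0.0387) fell past the threshold. In MPTP against control mice of the delayed experiment all 10 had negative values (median -0.92, against 0.00 for all genes), 7 had an unadjusted p under 0.05 (8.33% of all genes), and Btg2 fell past the threshold (-1.89, adjusted p = 0.0236, edgeR). In MPTP-irisin against MPTP mice 9 of 10 had positive values (median 0.62) and 0 passed the threshold, with 6 at an unadjusted p under 0.05 (3.90% of all genes). In MPTP against control mice of the pre-treatment experiment, where Apold1 was higher, their median was 0.17, with 2 of 10 at an unadjusted p under 0.05 (6.03% of all genes) and 0 past the threshold. The lists of choroid plexus, blood and dopaminergic neuron genes held 0 genes past the threshold in the 6 tested comparisons. Their smallest p values belonged to Otx2 in MPTP-irisin against MPTP mice (1.03 ± 0.28 SE, adjusted p = 0.9995, edgeR), Hba-a2 in irisin-MPTP against control mice (-0.89 ± 0.28 SE, 0.537) and Slc6a3 in the same comparison (-1.57 ± 0.24 SE, 0.0886). All 5 blood genes had negative values in irisin-MPTP against control and against MPTP mice (median -0.89 and -0.93), the comparisons where Apold1 and Nes were lower, and so had all 8 dopaminergic neuron genes (median -0.42 and -0.55). Of 8 choroid plexus genes, 2 (median 0.23) and 7 (-2.35) had negative values there. With MPTP in the pre-treatment experiment, where Apold1 and Nes were higher, all 8 choroid plexus genes had positive values (median 2.32). So had 4 of 5 blood genes (0.05) and 6 of 8 dopaminergic neuron genes (0.20). In that experiment only MPTP mouse 2 had a high choroid plexus sum (1662 CPM). With MPTP in the delayed experiment, where Apold1 was lower, all 8 dopaminergic neuron genes (median -0.49), all 8 choroid plexus genes (-0.64) and all 5 blood genes (-0.42) had negative values. In MPTP-irisin against MPTP mice, where Apold1 had a positive value, all 5 blood genes (median 0.48), 7 of 8 choroid plexus genes (0.33) and 2 of 8 dopaminergic neuron genes (-0.14) had positive values. The part of these cells in the values of Apold1 and Nes was not tested.

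**Figure D4:**
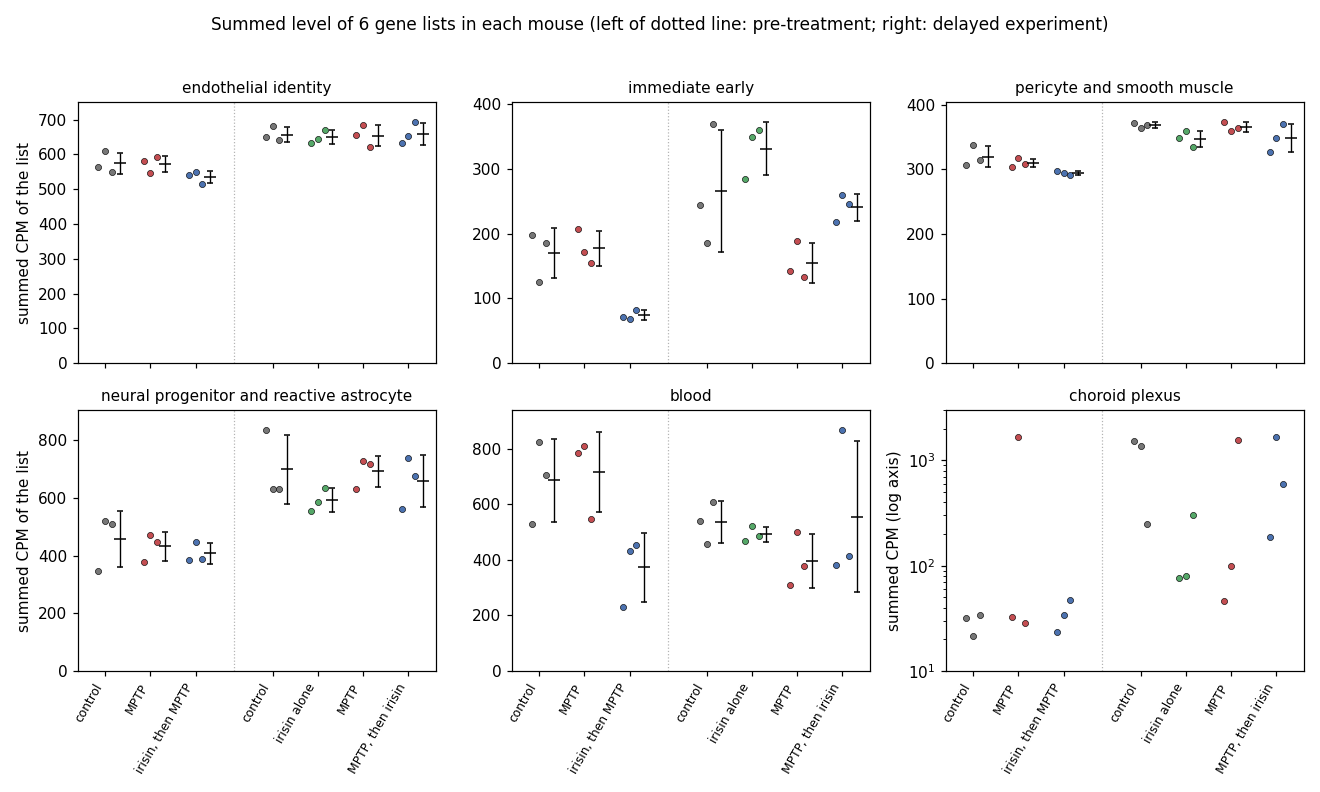
Summed TMM-scaled CPM of 6 gene lists in each mouse, with the pre-treatment groups left of the dotted line and the delayed groups right of it. Points are mice, black bars the mean with SD (n = 3), and the choroid plexus panel has a log axis and no bars. Endothelial identity lies between 515 and 694 CPM over all mice of both experiments, and the immediate early sum runs from 67.4 to 369 CPM. In the pre-treatment experiment the endothelial identity sum was 515 to 549 CPM in irisin-MPTP mice, below the 550.4 to 608 CPM of control mice.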

How the data were processed

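Midbrain RNA of 21 mice in 7 groups of 3, as given by the labels, was analysed. The authors counted reads per gene with featureCounts and deposited raw counts and FPKM values for each mouse in a table per experiment. Their processing notes name HISAT, StringTie, edgeR and the build mm9, while the gene models listed beside the values have GRCm38 coordinates. The use of strand was not given in the sources used here. Other columns of the tables were not used.

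Counts were tested with edgeR 4.0.16 in R 4.3.3 (filterByExpr with least count 10 and least total count 15, TMM scaling, quasi-likelihood test, two-sided) with all groups of an experiment in a single fit, and the experiments were fitted separately. P-values were Benjamini-Hochberg adjusted over every gene tested, and 0.05 was the threshold. The SE is the log2 fold change divided by the square root of F. With 3 mice per group, a p-value sets a difference against the variation between mice. That variation was estimated from all groups in the fit, with information shared across genes. Levels between genes were given as deposited FPKM. Log2 CPM for correlations used a prior count of 2.

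The genes and the 12 gene lists were chosen with earlier results of these data known. Named genes were the 10 genes, list genes past the threshold (at most 4 per comparison) or with the smallest p of a list, 4 markers of dopaminergic neurons and the 2 genes most similar to each of the 10, among genes tested in both experiments with a mean of at least 1 CPM in both. Alternatives were median ratio scaling, all genes with any count, a replicate block, DESeq2 1.42.0 on all genes, only the 2 compared groups, limma 3.58.1 on log2(FPKM + 1) and log2(FPKM + 0.1), which understates changes of low genes, and leaving out each mouse. The default filter of DESeq2 on low means was left on for its adjusted p. Its shares are of all 33731 and 33428 genes with a p-value, a wider base than for edgeR. The steps were tested on simulated counts. Python 3.11.15 with numpy 2.4.6, pandas 2.3.3 and scipy 1.17.1 was used for summaries and promoter letters.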

Additional observations from a re-analysis of the deposited data

Results flagged for a closer look

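Apold1 differed in opposite directions in the 2 experiments, without overlap between the groups in either. MPTP against control mice gave a log2 fold change of 1.39 in the pre-treatment experiment, where all 3 MPTP mice were above all 3 control mice, and -2.56 in the delayed experiment, where all 3 were below. Irisin with MPTP against MPTP alone gave -3.27 when irisin came first and 1.78 when it came after MPTP. Apold1 was chosen for its value of -3.27, the contrasts of an experiment share the MPTP mice, and the difference between the experiments was not tested.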

How the results depend on the processing

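Of the 480 values recomputed under alternatives other than leaving out a mouse, 467 kept their side of the threshold and their direction, and of the 480 that left out a mouse, 445 kept their side of the threshold or, where they carried no test, moved by less than the spread between mice, with 2 of these changing sign (Cdh5 in irisin-MPTP against MPTP). The call of Apold1 in MPTP against control mice of the delayed experiment was the result that depended most on the processing. Its count of 1 of the 10 genes became 0 with the replicate number as a block (log2 fold change -2.45, adjusted p = 0.0680, edgeR), with only the 2 compared groups in the fit (-2.56, adjusted p = 0.177, edgeR) and with limma on log2(FPKM + 1) (-1.65, adjusted p = 0.127), and it ranged from 0 to 1 when a mouse was left out, at 0 without each of the MPTP mice. Apold1 stayed called with median ratio scaling, all genes of any count, limma on log2(FPKM + 0.1) and DESeq2. DESeq2 moved the count from 0 to 1 for MPTP against control in the pre-treatment experiment (Cldn5), for irisin-MPTP against control (Mfsd2a) and for MPTP-irisin against MPTP (Apold1). Irisin-MPTP against MPTP, which chose Apold1 and Nes, was not counted. The causes were not tested. The replicate block changed no other call of the 10 genes. The correlation of deviations between same-numbered mice was near 0, at -0.0776 to 0.101 over 9 pairs and -0.0765 to 0.0387 over 18 pairs. The labels do not say whether these mice were handled together, and this check cannot exclude it.

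Differences near 0 changed sign. Pecam1 in MPTP-irisin against MPTP was -0.00154 with all genes of any count. When a mouse was left out, log2 fold changes that crossed 0 ranged from -0.118 to 0.118 (Cdh5) for irisin-MPTP against MPTP, from -0.0270 to 0.278 (Abcb1a) and -0.00709 to 0.220 (Flt1) for MPTP in the pre-treatment experiment, from -0.0463 to 0.102 (Pecam1), -0.0451 to 0.0424 (Flt1) and -0.000448 to 0.177 (Slco1a4) for MPTP in the delayed experiment, and from -0.173 to 0.0692 (Mfsd2a), -0.122 to 0.0269 (Pecam1) and -0.00323 to 0.174 (Slco1a4) for irisin alone. For MPTP-irisin against MPTP they ranged from -0.0550 to 0.0914 (Pecam1), -0.121 to 0.0618 (Nes), -0.0617 to 0.0166 (Slco1a4), -0.0120 to 0.0501 (Flt1) and -0.198 to 0.0305 (Cdh5), and for the interaction from -0.0711 to 0.0386 (Abcb1a) and -0.0164 to 0.138 (Pecam1). Over all genes, edgeR called 16, 5, 16, 29, 24, 1 and 9 genes in the 7 contrasts (in the order irisin-MPTP against MPTP, MPTP and irisin-MPTP against control, then delayed MPTP and irisin against control, MPTP-irisin against MPTP and the interaction), and DESeq2 169, 91, 191, 179, 145, 34 and 62. Leaving out a mouse gave counts of 10 to 26, 7 to 17, 5 to 20, 16 to 35, 16 to 29, 1 to 7 and 7 to 19 in that order, with 17 in the second without MPTP mouse 2. Under the other alternatives, counts that moved by more than 1.5 times were, in order, 8, 2, 2, 17 and 14 in the first 5 contrasts with the block, 10, 10, 14 and 9 in the second and the fourth to sixth with 2 groups, 9 and 2 in the third and sixth with all genes, and 6 and 3 in the third and last with limma on log2(FPKM + 1). The interaction was not run with 2 groups. Fold changes of Apold1 on the log2(FPKM + 1) scale were smaller in size, at -2.23, 1.12 and -1.11 in the 3 pre-treatment contrasts. With 3 mice per group, small differences of the other genes were not detectable against the spread between mice.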
